A study of Mus musculus with 3 samples.

Results

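The genes described here are 9 genes of hepatic glucose production and glucose handling, read in liver RNA of Control, HF and HF+SFC mice. They are Pcx, Pck1, Fbp1 and G6pc, whose enzymes make glucose from small precursors, their coactivator Ppargc1a, the glucose transporter gene Slc2a2, the glycolytic genes Gckr and Pklr, and the glycogen synthase gene Gys2. They were taken by name, through every probe set whose annotation names 1 of these genes and no other gene, and they are 9 of the 18193 genes that the array reads in this way. The Control mice were male C57BL/6J mice on an open source diet with 10% of its energy as fat and 70% as carbohydrate. The HF mice, of the same sex and strain, ate a diet with 60% of its energy as fat and 20% as carbohydrate, so that the HF diet held less carbohydrate as well as more fat. The HF+SFC mice ate that HF diet with 0.023% by weight of sodium ferrous citrate (SFC), an iron salt used as an oral supplement. Diets were given from 6 weeks of age for 15 weeks and food was withdrawn for some hours before the livers were taken, whereas the age in the labels, 21 months, does not match these times and was not used. Each group was 1 array of material mixed from all mice of the group, so the spread between mice was not measured and no test between groups could be made.

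The liver supplies glucose to the blood between meals, first from glycogen and then by gluconeogenesis, which runs from lactate, amino acids and glycerol. Pyruvate carboxylase (Pcx) and phosphoenolpyruvate carboxykinase (Pck1) bypass the pyruvate kinase step, fructose-1,6-bisphosphatase (Fbp1) bypasses phosphofructokinase, and glucose-6-phosphatase (G6pc) releases free glucose. Glucagon acts through cAMP and, with the coactivator PGC-1α (Ppargc1a), raises transcription of Pck1 and G6pc in fasting, whereas insulin lowers it. After a meal GLUT2 (Slc2a2) carries glucose into the hepatocyte, the glucokinase regulatory protein (Gckr) holds or releases glucokinase, liver pyruvate kinase (Pklr) completes glycolysis, and glycogen synthase (Gys2) stores glucose.

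The promoters of 4 of the genes are shown, those of G6pc and Slc2a2 because they differed by 1.5-fold or more between arrays and those of Pck1 and Ppargc1a because they hold the core of the cAMP response element, through which glucagon acts. Pklr also differed by 1.5-fold or more but has several listed start sites, which the array does not tell apart, and is not shown. Each promoter shown is the 250 bases before a listed start, 5′ to 3′ on the strand of the gene, from RefSeq (GRCm38.p6), which lists promoters for 8 of the 9 genes. The start listed for Ppargc1a lies inside the annotated gene, which spans chr5:51454249-52115853, and not at its 5′ end. Capitals mark the CCAAT boxes and the TATA box in G6pc, the CCAAT boxes in Slc2a2, and the core of the cAMP response element in Pck1 and Ppargc1a, in each case on either strand.
G6pc, chr11:101367466-101367715, + strand: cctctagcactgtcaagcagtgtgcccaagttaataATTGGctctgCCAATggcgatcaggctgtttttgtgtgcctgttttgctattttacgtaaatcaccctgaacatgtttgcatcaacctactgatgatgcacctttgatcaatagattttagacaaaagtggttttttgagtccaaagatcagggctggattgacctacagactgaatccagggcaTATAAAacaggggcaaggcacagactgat
Slc2a2, chr3:28697653-28697902, + strand: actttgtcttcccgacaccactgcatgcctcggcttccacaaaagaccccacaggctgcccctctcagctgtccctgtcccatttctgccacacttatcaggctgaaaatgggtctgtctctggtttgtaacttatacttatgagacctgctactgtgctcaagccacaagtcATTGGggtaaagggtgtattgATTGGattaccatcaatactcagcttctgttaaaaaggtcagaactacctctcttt
Pck1, chr2:173152823-173153072, + strand: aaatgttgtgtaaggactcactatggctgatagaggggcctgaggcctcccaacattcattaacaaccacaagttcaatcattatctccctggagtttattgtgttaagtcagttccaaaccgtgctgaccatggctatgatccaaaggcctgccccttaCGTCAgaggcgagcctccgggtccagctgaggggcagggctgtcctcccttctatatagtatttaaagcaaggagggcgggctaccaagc
Ppargc1a, chr5:51567726-51567975, - strand: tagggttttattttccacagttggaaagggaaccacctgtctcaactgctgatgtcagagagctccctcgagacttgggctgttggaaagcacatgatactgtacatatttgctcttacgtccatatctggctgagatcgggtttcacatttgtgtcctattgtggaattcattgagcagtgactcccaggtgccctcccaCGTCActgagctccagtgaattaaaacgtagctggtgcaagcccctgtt

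The core TGACG was read on the reverse strand, as CGTCA, 90 to 86 bases before the start of Pck1 and 49 to 45 bases before the start listed for Ppargc1a. It lies within the full cAMP response element TGACGTCA, which was found in 0 of the 8 genes and in 1.55% of the 32851 promoters listed for the mouse. The core was present in 17.8% of all promoters, beside 2 of 8 genes. The shares are counted per promoter, whereas a gene was counted if any of its start sites held the motif. The 8 genes have 10 start sites, and 2 of the genes have several. Counts of genes and shares of promoters are therefore not in the same unit. G6pc held a TATAAA sequence 29 to 24 bases before its start, a motif present in 12.4% of promoters, and Pklr held one before the second of its start sites. CCAAT, present in 33.8% of promoters, was found in 6 of the 8 genes, namely G6pc, Slc2a2, Fbp1, Pcx, Gckr and Pklr. The E-box CACGTG, present in 6.02% of promoters, was found in Pcx. The forkhead sequence GTAAACA and the HNF1 motif were found in 0 of the 8 genes, against 3.17% and 0.00913% of all promoters. A match is a description of the letters, and its absence from 250 bases says nothing about a factor.

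All values are MAS5 signals, that is, probe set intensities on a linear scale on which each array had been scaled to one target. A gene was read by its brightest probe set, and its log2 ratio between 2 arrays was counted at 1.5-fold (0.58 on the log2 scale) or more. The 9 genes had 21 probe sets, of which 17 were ordinary and 4 were Affymetrix control probe sets of Pcx. All 9 genes lay in the upper 25% of signal on the array, above 394. In place of replicates, the scatter of ratios among the probe sets of a gene served as the error, with an SD of 0.20 for HF over Control, 0.17 for HF+SFC over HF and 0.20 for HF+SFC over Control among 2354 genes in the upper 25% of signal. Where 3 signals follow a gene without names, they are those of Control, HF and HF+SFC in this order. The error leaves out the differences between mice and between hybridisations.

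Liver identity and RNA quality were compared first. The summed signal of 9 hepatocyte markers was 477608 for Control, 443879 for HF and 453607 for HF+SFC, with log2 ratios of HF over Control below 0 for 9 of 9 and a median of -0.09. That of 14 macrophage markers was 24109, 32872 and 23890, and that of 12 stellate cell markers 19786, 28658 and 22187. Both were highest in HF, with 14 of 14 and 12 of 12 markers above Control. In bulk tissue fewer cells of a type and less RNA per cell cannot be told apart. The part of scaling at high signal in the hepatocyte values was not tested. Alb read 54077 for Control and Fbp1, of like signal, 50429. The log2 ratio of HF over Control for Fbp1 was -0.04, but 0.07 after quantile normalization and 0.09 after lowess scaling. The ratio of 3′ to 5′ control signal, which rises as RNA is shorter, was 1.84, 1.65 and 1.73 for Actb and 0.708, 0.680 and 0.708 for Gapdh in Control, HF and HF+SFC.

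The first comparison, HF over Control, asks how these genes differed after the high-fat diet. Slc2a2 and Pklr were 1.91-fold and 1.60-fold higher in HF, and no gene of the 9 was 1.5-fold lower. G6pc was 1.39-fold lower and Pck1 1.20-fold lower, whereas Pcx was 1.45-fold higher. The 9 genes therefore did not differ in one direction, with 6 above and 3 below 0 and a median log2 ratio of 0.33. The split was 7 and 2 after quantile normalization, lowess scaling or centring on the hepatocyte markers. It was 5 and 4 with arrays centred on their medians. Of the genes in the upper 25% of signal 48.7% were above 0. Among all 11341 genes in the upper 50% of signal, 11.3% were higher by 1.5-fold or more and 5.84% lower, with a median of 0.03. These were 1282 and 662 genes, compared with 975 and 957 when each array was centred on its median and 1756 and 470 when it was centred on the hepatocyte markers. Among the 6834 genes in the upper 25% of signal these shares were 6.50% and 4.14%, with a median of -0.01. Markers of the zones of the liver lobule, in which glucose genes are unevenly expressed, had medians of -0.02 over 8 periportal genes and 0.18 over 10 pericentral genes, with 1 and 2 genes at least 1.5-fold higher and 1 and 0 lower. Their part in the values of the 9 genes was not tested.

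**Figure D1:**
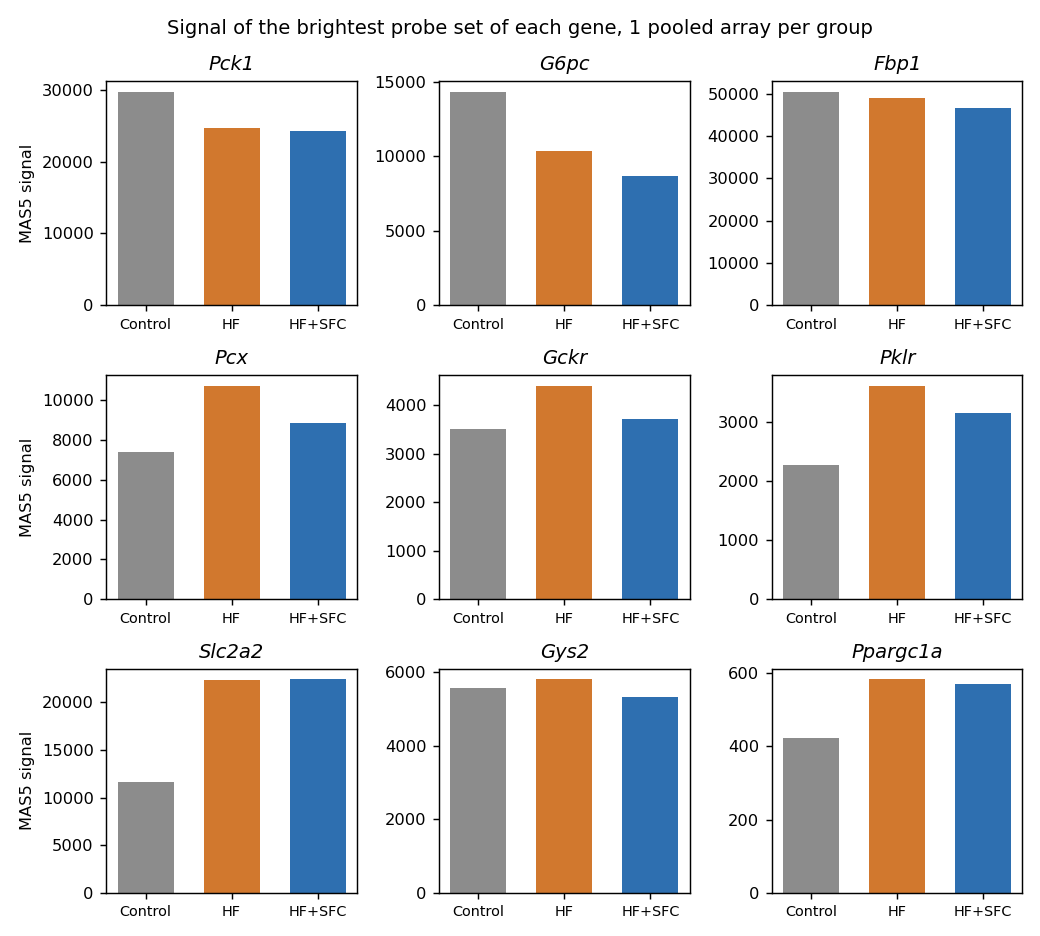
MAS5 signal (linear scale, from 0) of the brightest probe set of each of the 9 genes on the Control, HF and HF+SFC arrays, 1 bar per array and no error bar because each group is 1 pool. Slc2a2 stands at 11669 for Control, 22300 for HF and 22408 for HF+SFC, and G6pc steps down from 14335 to 10339 and 8687. The scale differs between panels, so that heights are not comparable between genes.

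Among the enzymes of gluconeogenesis, Pcx, which carboxylates pyruvate to oxaloacetate in the mitochondrion, read 7411 for Control, 10742 for HF and 8836 for HF+SFC. HF was the highest of the 3 arrays and HF+SFC lay between the others. The log2 ratio of HF over Control was 0.54, just inside 1.5-fold. Along the same transcript, the control probe sets gave 0.11 at the 3′ end, 0.43 and 0.24 in the middle, and 0.52 at the 5′ end. All 4 had the sign of the ordinary probe set, but their size was not even. The 3′ to 5′ ratio of Pcx was 4.28 for Control, 3.23 for HF and 3.89 for HF+SFC, lowest where the ordinary probe set was highest, and its part in the Pcx values was not tested. The ordinary probe set has a suffix that marks a match to more than 1 transcript form.

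Pck1, the cytosolic enzyme that turns oxaloacetate into phosphoenolpyruvate, read 29727.5 for Control, 24707 for HF and 24291 for HF+SFC. A second probe set read 17518, 14424 and 13021. Control was highest by both, and their log2 ratios of HF over Control were -0.27 and -0.28. The third probe set, at 34.6, 79.8 and 83.1, was the 1 ordinary probe set of the 9 genes below the upper 50% of signal, and it pointed the other way. Its log2 ratio of 1.21 was not used.

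Fbp1 read 50429 for Control, 48968 for HF and 46699 for HF+SFC. These 3 signals spanned a log2 ratio of -0.11, less than the spread between probe sets. G6pc, whose product carries out the last step of both gluconeogenesis and glycogen breakdown, read 14335 for Control, 10339 for HF and 8687 for HF+SFC. HF was lower than Control by 0.47 on the log2 scale, and HF+SFC lower than HF by 0.25. Of the 6834 genes in the upper 25% of signal, 6.73% had a log2 ratio of HF over Control below that of G6pc, compared with 18.4% for Pck1 and 45.6% for Fbp1. G6pc and Fbp1 were each read by 1 probe set, so that no second probe set was at hand.

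Ppargc1a encodes PGC-1α, the coactivator that fasting induces. Its brightest probe set read 424 for Control, 584 for HF and 571 for HF+SFC, a log2 ratio of 0.46 between HF and Control. It had 5 probe sets, of which 4 were above 0 and 2 were beyond 1.5-fold. The ratios of HF over Control for the other probe sets were 0.43, 0.81 and 0.84, and -0.01 for the fifth, whose suffix marks possible cross-hybridisation. Control was the lowest array for 4 of the probe sets, by a margin that differed between them.

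**Figure D2:**
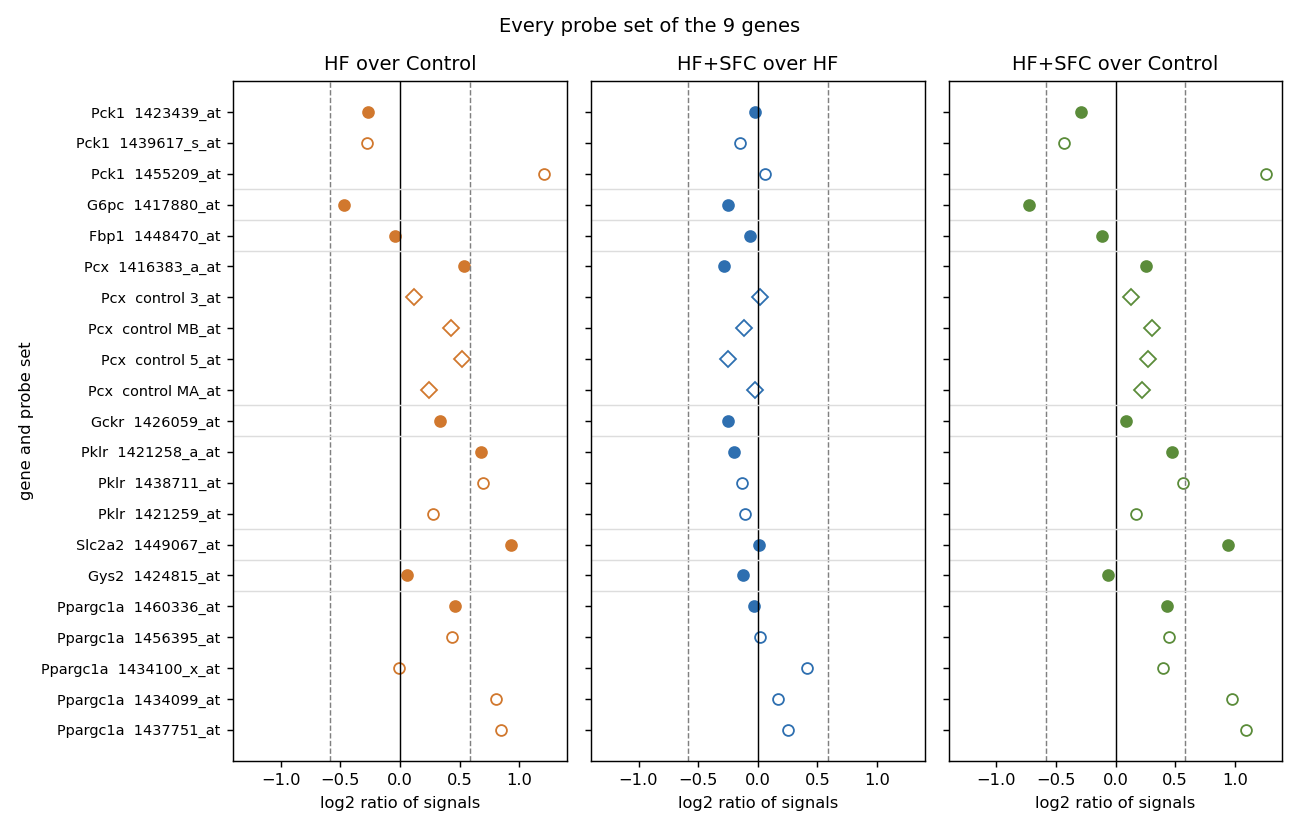
Log2 ratio of signals (horizontal axes) for each of the 21 probe sets of the 9 genes (rows) in the 3 comparisons. Filled circles are the brightest ordinary probe set of a gene, open circles its other probe sets, and diamonds the Affymetrix control probe sets of Pcx. Dashed lines stand at 1.5-fold. Probe sets of Pklr lie between 0.28 and 0.70 in HF over Control, and the dim probe set of Pck1 stands alone at 1.21.

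Slc2a2 encodes GLUT2, through which glucose crosses the hepatocyte membrane in both directions. Its signal was 11669 for Control, 22300 for HF and 22408 for HF+SFC. Both pools from HF diets were higher than Control and differed from each other by a log2 ratio of 0.01. The ratio of HF over Control, 0.93, was above that of 97.8% of genes in the upper 25% of signal, and it was read by 1 probe set.

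Pklr encodes the pyruvate kinase of liver, a classical target of the carbohydrate-responsive factor ChREBP. Its brightest probe set read 2262 for Control, 3612 for HF and 3142 for HF+SFC, and its second 1845, 2993 and 2728. Their log2 ratios of HF over Control were 0.68 and 0.70, both beyond 1.5-fold. The dimmest of the 3 read 1273, 1543 and 1436, a ratio of 0.28 that stayed within 1.5-fold. All 3 placed the arrays in the same order, with HF highest and Control lowest. Gckr, whose protein keeps glucokinase inactive in the nucleus, read 3503 for Control, 4410 for HF and 3718 for HF+SFC. Its log2 ratio of HF over Control was 0.33, above the error of 0.20 and within 1.5-fold. Glucokinase itself was not analysed here.

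Gys2, the glycogen synthase of liver, read 5555 for Control, 5798 for HF and 5318 for HF+SFC. Its log2 ratio of HF over Control was 0.06, within the spread between probe sets, and its direction turned to -0.03 with arrays centred on their medians. Fbp1 likewise had no stable direction, since its ratio of -0.04 became 0.07 after quantile normalization. The directions of the other 7 genes in HF over Control held under every scaling and choice of probe set tried, except that Pcx could not be read without probe sets of ambiguous suffix. For a gene with a single ordinary probe set, the choice of probe set could not change the direction.

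**Figure D3:**
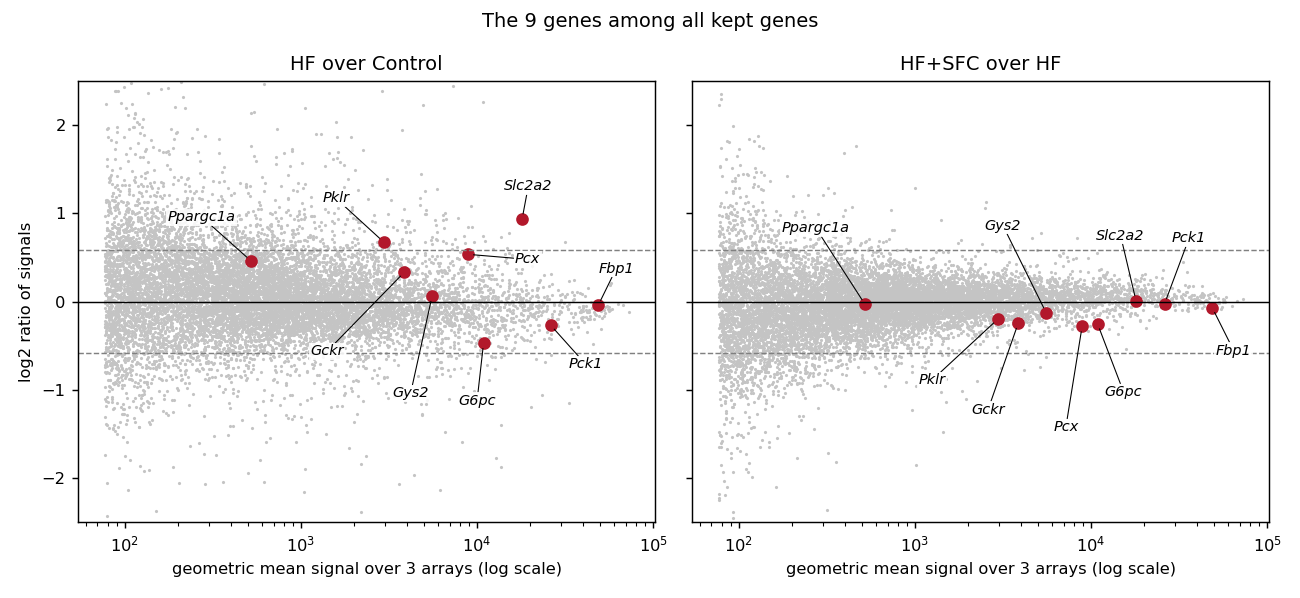
Log2 ratio of signals (vertical axes) against geometric mean signal (horizontal axes, log scale) for the kept genes (grey) and the 9 genes (red), for HF over Control and HF+SFC over HF. Dashed lines stand at 1.5-fold, and 42 kept genes lie beyond the vertical range. In HF over Control Slc2a2 and Pklr lie above the upper line, and in HF+SFC over HF the 9 genes lie within both lines.

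HF+SFC was compared with HF to describe the addition of iron to the same diet. None of the 9 genes differed by 1.5-fold, and their log2 ratios ran from -0.28 to 0.01. Among all kept genes 2.88% were higher by 1.5-fold or more and 5.33% lower, and in the upper 25% of signal 0.571% and 1.11%. The kept genes were 327 higher and 605 lower as scaled by the authors, 452 and 456 after quantile normalization, 449 and 461 after lowess scaling, and 535 and 397 with arrays centred on their medians. A count of 0 among 9 genes was thus near the background. The ratio was below 0 for 8 of the 9 genes, with a median of -0.12 against 0.02 for the upper 25% of genes, of which 53.5% were above 0. This count rested on the scaling of the arrays. It was 9 after quantile normalization or lowess scaling and 5 when each array was centred on its median, which moved the median of all kept genes by 0.12.

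The genes with the larger ratios in HF+SFC over HF were Pcx, G6pc, Gckr and Pklr. Pcx was 1.22-fold lower, a log2 ratio of -0.28. Its control probe sets read -0.25 at the 5′ end, -0.12 and -0.02 in the middle, and 0.02 at the 3′ end. Of these only that at the 5′ end lay beyond the spread of 0.17 between probe sets. G6pc and Gckr were each 1.19-fold lower, with ratios of -0.25. Of the genes in the upper 25% of signal, 7.77%, 9.58% and 9.79% had a ratio below that of Pcx, G6pc and Gckr. Pklr followed with -0.20, and its other probe sets with -0.13 and -0.10. These 4 ratios, each of the brightest probe set, exceeded the spread of 0.17 as scaled by the authors. With arrays centred on their medians they were -0.16 for Pcx, -0.13 for G6pc, -0.13 for Gckr and -0.08 for Pklr, all within that spread. Their signs were the same under the scalings tried.

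The ratios of Gys2 (-0.12), Fbp1 (-0.07), Pck1 (-0.02) and Slc2a2 (0.01) lay within the spread. Those of Fbp1, Pck1 and Slc2a2 changed sign with the scaling. Ppargc1a had a ratio of -0.03 by its brightest probe set but was above 0 by 4 of 5, from 0.02 to 0.41, with a median over the probe sets of 0.17. Its direction between the 2 HF pools was therefore not settled.

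HF+SFC was compared with Control to describe how far the supplemented pool lay from the reference diet. This comparison shares an array with each of the others, so its values are given beside theirs and not as a further result. Slc2a2 was 1.92-fold higher in HF+SFC than in Control, and G6pc was 1.65-fold lower, with log2 ratios of 0.94 and -0.72. Of all kept genes 9.20% were higher by 1.5-fold or more and 6.88% lower, and in the upper 25% of signal 6.00% and 4.48%. The kept genes were 1043 higher and 780 lower, or 1428 and 549 with arrays centred on the hepatocyte markers. The median of the 9 genes was 0.09, compared with 0.02 for all kept genes. G6pc ranked at 2.69% from the bottom of the upper 25% of genes and Slc2a2 at 98.1%.

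The other genes lay within 1.5-fold of Control in the HF+SFC pool. Pklr had a log2 ratio of 0.47 by its brightest probe set, Ppargc1a 0.43, Pcx 0.25 and Gckr 0.09. Pck1 had -0.29, Fbp1 -0.11 and Gys2 -0.06. For Ppargc1a, 5 of 5 probe sets were above 0, from 0.40 to 1.10, and 2 of them were beyond 1.5-fold. Some ratios of brightest probe sets lay within the SD between probe sets, 0.17 for HF+SFC over HF and 0.20 for the others. They were HF+SFC over HF in Slc2a2, Pck1 and Ppargc1a, HF+SFC over Control in Gckr, and every comparison in Fbp1 and Gys2. A ratio beyond that SD is not thereby a difference between groups, since the SD leaves out mice and hybridisations.

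**Figure D4:**
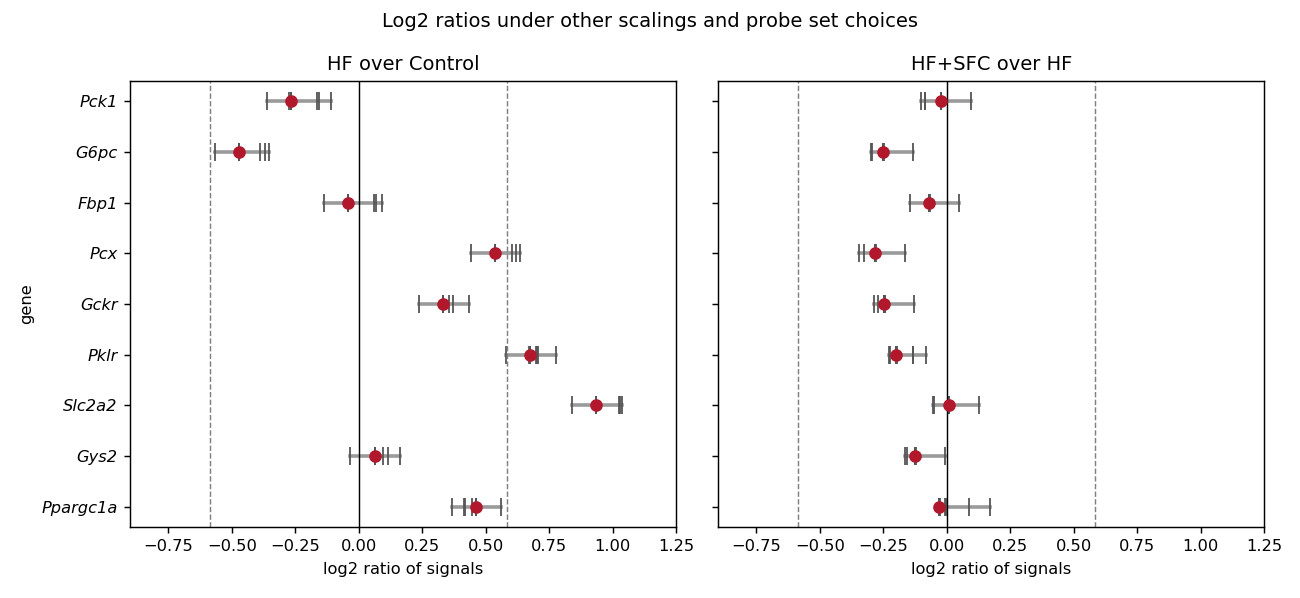
Log2 ratio of signals (horizontal axes) of the 9 genes (rows) as reported (red points) and under each other scaling, floor, pseudocount and choice of probe set tried (grey ticks, joined by a bar from the lowest to the highest). Dashed lines stand at 1.5-fold. Slc2a2 stays between 0.84 and 1.03 in HF over Control, and Pklr reaches 0.58, just inside the line, with arrays centred on their medians.

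The genes in the upper 25% of signal whose pair of ratios, HF over Control and HF+SFC over HF, lay nearest to those of the 3 genes beyond 1.5-fold were found by distance over 3 arrays. Nearest to Slc2a2 were Cyp20a1 at a distance of 0.0104, Akr1c20 at 0.0152 and Trim24 at 0.0215. Nearest to G6pc were Ddx17 at 0.00843, Inhbe at 0.0228 and Sfpq at 0.0288. Nearest to Pklr were Pold4 at 0.0147, 3110040N11Rik at 0.0223 and Sae1 at 0.0236. With 3 arrays a pattern is 2 numbers, so such likeness is a description.

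The 9 genes sit among 173 listed genes of glucose metabolism, of which 154 were read and 145 kept, the 9 included. In HF 26 of the 145 were higher by 1.5-fold or more and 15 lower than Control, with a median log2 ratio of 0.09, beside the 11.3% and 5.84% of all kept genes. These counts were 20 and 18, with a median of -0.0021, when arrays were centred on their medians, and 34 and 10 when they were centred on the hepatocyte markers. In the upper 25% of signal 16 of 115 were higher and 12 lower, beside 6.50% and 4.14% of all genes there. Among the 136 other genes 24 were higher and 15 lower. Between HF+SFC and HF 3 were higher and 7 lower, beside 2.88% and 5.33% of all kept genes. The median was -0.03 and turned to 0.09 with arrays centred on their medians, where 4 were higher and 6 lower, and in the upper 25% of signal 0 were beyond 1.5-fold in either direction. In HF+SFC over Control 19 were higher and 16 lower, beside 9.20% and 6.88% of all kept genes. The same shares of all kept genes stand beside the counts of the shorter lists that follow, whose few genes allow no comparison with them.

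Of the 17 kept genes of gluconeogenesis, 3 were higher in HF and 0 lower, with a median of 0.18. Slc37a4, the transporter that brings glucose-6-phosphate to G6pc in the endoplasmic reticulum, read 4366 for Control, 7795 for HF and 8102 for HF+SFC. It was 1.79-fold higher in HF, opposite in direction to G6pc. The mitochondrial dicarboxylate carrier Slc25a10 was 1.75-fold higher, with its 2 probe sets at 0.77 and 0.81. G6pc3, a glucose-6-phosphatase of many tissues, read a dim 52.9, 169 and 170. Pck2, the mitochondrial counterpart of Pck1, read 261, 177 and 145, and was 1.80-fold lower in HF+SFC than in Control. Of the 17 genes 0 were beyond 1.5-fold in HF+SFC over HF, the larger ratios being 0.50 for the transaminase gene Got1 and -0.28 for Pck2. In HF+SFC over Control 4 were higher and 2 lower, the higher being Slc37a4 at 0.89, Slc25a10 at 0.77, G6pc3 at 1.68 and, named after its value was seen, the transaminase gene Gpt at 0.70, and the lower Pck2 and G6pc.

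Of the 19 kept genes of glycolysis, 6 were higher in HF and 0 lower, with a median of 0.29, beside 11.3% and 5.84% of all kept genes. Pfkfb3, which makes an activator of phosphofructokinase, was 2.12-fold higher. Pkm, the pyruvate kinase of other tissues, was 2.05-fold higher, the aldolase gene Aldoc 1.81-fold and the hexokinase gene Hk1 1.65-fold. Unlike Pklr, these 4 genes lay below the upper 25% of signal. With SFC, 5 of the 19 were lower than in HF and 1 higher, with a median of -0.20. Hk3, a hexokinase, was 2.46-fold lower, Hk2 1.81-fold, Pkm 1.76-fold and Hk1 1.64-fold lower, as was Pfkfb4 at -0.69, which was named after its value was seen, whereas Aldoc was 1.66-fold higher.

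The signals of the 5 lower genes were dim, and macrophage and stellate markers moved in the same way. HF over Control and HF+SFC over HF share the HF array, so a higher value in HF and a lower one in HF+SFC are not separate results. Of 14 macrophage markers 4 were higher by 1.5-fold or more in HF than in Control, with a median of 0.42, and for HF+SFC over HF 14 of 14 were below 0, 5 of them by 1.5-fold, with a median of -0.42. Marco read 319, 714 and 202, and Cd74 1557, 3202 and 1483. Of 12 stellate markers 7 were higher in HF, with a median of 0.70, and 6 lower in HF+SFC against HF, with a median of -0.49. Col3a1 read 877, 2851 and 1685, Col1a2 623, 1577 and 905, Des 115, 253 and 84.9, and Vim 1001, 2371 and 1164. The part of these markers in the glycolytic values was not tested. Against Control, 3 glycolytic genes were higher and 2 lower in HF+SFC, with Aldoc at 1.59, Pfkfb3 at 0.79, Pfkfb2 at 0.62, Hk3 at -1.08 and Hk2 at -0.60.

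Of the 20 kept glycogen genes, 5 were higher in HF and 1 lower, with a median of 0.17 beside 0.06 for Gys2. The branching enzyme gene Gbe1 read 2771 for Control, 5214 for HF and 4721 for HF+SFC and was 1.88-fold higher in HF. Gyg, glycogenin, on which a new chain is started, was 1.92-fold higher with its 2 probe sets at 0.94 and 1.06. Pgm2, a phosphoglucomutase gene, read a dim 127, 256 and 132. Ppp1r3g, a glycogen-targeting subunit of protein phosphatase 1, read a dim 187, 68.9 and 50.1 and was 2.71-fold lower in HF. Its HF and HF+SFC signals were below 76.9, the level used to keep genes, so its ratios are imprecise. Against HF, Epm2a, the glycogen phosphatase laforin, was 1.80-fold higher and Pgm2 1.95-fold lower in HF+SFC, both at low signal. The other genes higher in HF over Control were Epm2a and Phkb, a subunit of phosphorylase kinase, each at 0.77 and named after their values were seen. Against Control, 3 were higher and 1 lower in HF+SFC, with Epm2a at 1.62, Gyg at 1.04, Gbe1 at 0.77 and Ppp1r3g at -1.90.

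Of the 11 kept genes of sugar transport and fructose use, 3 were higher in HF, Slc2a2 among them, and 0 lower. The fructose transporter Slc2a5 read 191 for Control, 444 for HF and 357 for HF+SFC, and Tkfc, the triokinase of fructose breakdown, 1410, 2204 and 1948. They were 2.33-fold and 1.56-fold higher in HF. No gene of the 11 was beyond 1.5-fold in HF+SFC over HF, with the insulin-responsive transporter Slc2a4 at -0.38 and Slc2a5 at -0.32. In HF+SFC over Control 3 were higher, Slc2a2, Slc2a5 at 0.90 and the urate transporter Slc2a9 at 0.67.

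Of the 14 kept genes of pyruvate use, 4 were higher and 3 lower in HF. Pdk4, which shuts down pyruvate dehydrogenase in fasting, read 3165 for Control, 340 for HF and 253 for HF+SFC and was 9.32-fold lower in HF. Slc16a1, a carrier of lactate and pyruvate, read 13899, 4970 and 4086 and was 2.80-fold lower, whereas the related Slc16a7 read 1985, 4396 and 3974 and was 2.22-fold higher. Pdk1 had a ratio of 0.66 by its brightest probe set, but its 3 probe sets ran from -0.25 to 0.66. The others beyond 1.5-fold, named here after their values were seen, were Pdk2 (0.64) and the pyruvate carrier gene Mpc1 (0.61), both higher, and Pdp2 (-0.59), lower. No gene of the 14 was beyond 1.5-fold in HF+SFC over HF, with Pdk4 at -0.42 and Pdpr at 0.32. Against Control, 3 were higher and 3 lower in HF+SFC, with Pdk4 at -3.64, Slc16a1 at -1.77 and the phosphatase gene Pdp2 at -0.77, and with Slc16a7, Pdk1 and Mpc1 higher.

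Of the 8 kept genes of the pentose phosphate pathway, Pgd, which makes NADPH, was 1.91-fold higher in HF, by 4 probe sets that ran from 0.93 to 1.18, and H6pd was 1.52-fold lower. No gene of the 8 was beyond 1.5-fold in HF+SFC over HF, with Tigar at -0.56 and Rpe at -0.30. Pgd had a ratio of 0.78 in HF+SFC over Control.

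**Figure D5:**
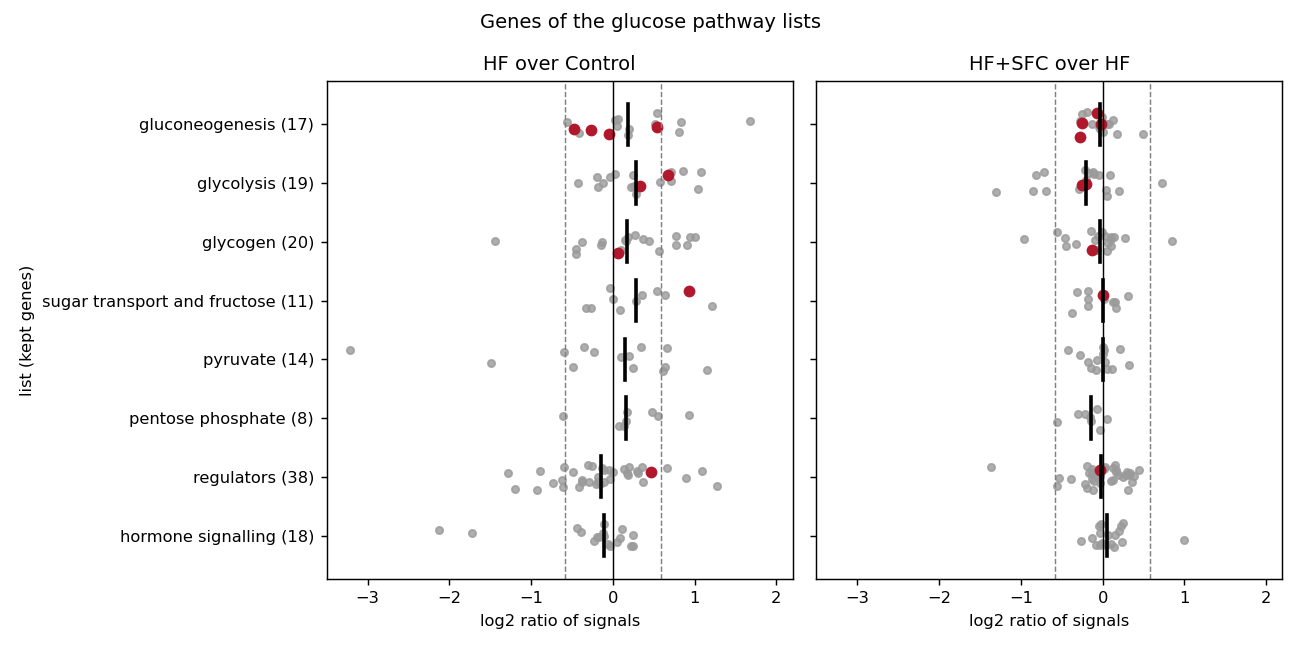
Log2 ratio of signals (horizontal axes) of the kept genes of 8 lists of glucose metabolism (rows, with the number of kept genes) for HF over Control and HF+SFC over HF. Grey points are genes, red points the 9 genes, black bars list medians and dashed lines 1.5-fold. In HF over Control 6 list medians lie above 0, and those of regulators (-0.15) and hormone signalling (-0.11) below.

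Among 38 kept regulators, which include Ppargc1a, 4 were higher and 8 lower in HF, with a median of -0.15. The liver transcription factor genes Onecut1 and Foxa1 were 2.44-fold and 2.29-fold lower. Onecut1 read 1349 for Control, 553 for HF and 750.3 for HF+SFC, and Foxa1 read 2599, 1136 and 1114. Srebf1, which drives insulin-responsive lipid synthesis, read 3038, 7338 and 9276 and was 2.42-fold higher. Named after their values were seen, the other regulators beyond 1.5-fold were Foxa2 (-0.89), Foxa3 (-0.62), Hnf4a (-0.61), Creb3l3 (-0.59), Crtc1 (-0.93) and Dusp1 (-0.73), all lower, and Foxo3 (0.90) and Kat2a (0.67), both higher. The first 3 of these encode transcription factors that maintain liver gene expression. Probe sets were uneven for Kat2a (-0.20 to 0.72), Foxo3 (0.35 to 0.90), Hnf4a (-0.61 to -0.24) and Crtc1 (-0.93 to -0.37), and those of Kat2a differed in sign. The nuclear receptor gene Nr4a2 read a dim 74.4, 158 and 61.3 and was the 1 regulator beyond 1.5-fold in HF+SFC over HF. Against Control, 2 regulators were higher and 5 lower in HF+SFC, with Srebf1 at 1.61, Foxa1 at -1.22, the corepressor gene Nr0b2 at -0.93, the phosphatase gene Dusp1 at -0.86, Onecut1 at -0.85, Foxa2 at -0.59 and Foxo3 at 0.83.

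Among 18 kept genes of hormone signalling, 0 were higher and 2 lower in HF, with a median of -0.11. Igfbp1, which insulin represses as it does G6pc and Pck1, read 16981 for Control, 3877 for HF and 3549 for HF+SFC and was 4.38-fold lower in HF. Irs2, an insulin receptor substrate, read 500.2, 151 and 301 and was 3.31-fold lower in HF, with a ratio of 0.997 in HF+SFC over HF. In HF+SFC over Control 3 genes were lower, namely Igfbp1 at -2.26, Irs2 at -0.73 and Irs1 at -0.70.

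Genes of the circadian clock were read because glucose genes follow the time of day and of feeding. Of 14 kept clock genes 5 were higher and 4 lower in HF than in Control, with Ciart at 68.4, 315 and 335 and Per3 at 99.6, 387 and 449. The Control signal of Ciart was below 76.9, the level used to keep genes, so its ratios to Control are imprecise. That of Per3 was also dim. The 4 lower genes, named after their values were seen, were Arntl at -1.60, Nfil3 at -1.33, Clock at -1.09 and Cry1 at -0.74. The median log2 ratio of the 14 clock genes was 0.37 in HF over Control and 0.09 in HF+SFC over HF. The part of the clock genes in the values of the 9 genes was not tested.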

How the data were processed

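Liver RNA of Control, HF and HF+SFC mice was hybridised to Affymetrix GeneChip Mouse Genome 430 2.0 arrays, 1 array per group of pooled material. Per the labels the authors used MAS5 to make the deposited intensities, which are linear, and its version is not given in the sources used here. Before deposit the authors had scaled each array to one target, since the 2% trimmed mean was 500.004 on each, which removed differences in total signal. Median signals were 81.7, 87.3 and 80.4. No columns were left out, and the number of arrays limits the precision.

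Of 45101 probe sets, 64 were controls. Of the others 34945 named 1 gene by the platform annotation, 932 named several and 9160 were not listed. RefSeq (GRCm38.p6) matched 34741 by Entrez identifier and changed 0 symbols. A gene was read by its brightest probe set (mean of log2 signal over the arrays) and kept in the upper 50% of probe sets (76.9 or more). Log2 ratios were counted at 1.5-fold, the threshold of the study, with no test. Motifs were searched on both strands.

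The members, gene lists and rules were chosen with earlier results of these data known. Of each list up to 4 genes beyond 1.5-fold were named, or the 2 largest where none was beyond, with 3 nearest genes for each member beyond 1.5-fold and 2 genes of each marker list whose median exceeded 0.3 in size. The pathway lists cover gluconeogenesis, glycolysis, glycogen, sugar transport and fructose, pyruvate, pentose phosphate, regulators and hormone signalling. Alternatives were centring on the median, quantile normalization, lowess (fraction 0.3), no filter, the upper 25% of signal, a floor at the array median, a pseudocount of 16, the median over probe sets, leaving out ambiguous suffixes, a 2-fold threshold and, chosen after seeing the data, centring on the hepatocyte markers. Python 3.11.15, numpy 2.4.6, pandas 2.3.3, scipy 1.17.1 and statsmodels 0.14.6 were used, and the steps were tested on simulated data. Genes that the annotation or the files used here do not name were not analysed here.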

Additional observations from a re-analysis of the deposited data

How the results depend on the processing

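With 1 array per group there was no replicate check, a replicate could not be left out, and a fold at low signal is imprecise. No paired analysis was possible because each group had 1 array. Of 199 summaries under the alternatives 14 moved, a count by over 1.5 times or a median by the spread between probe sets or more, as did 1 of 213 ratios of single members. Signs of values within 1.5-fold did change. With arrays centred on their medians the pathway median turned from 0.09 to -0.0021 in HF over Control and from -0.03 to 0.09 in HF+SFC over HF. Under at least 1 alternative the sign changed for Fbp1 and Gys2 in HF over Control, Gys2 in HF+SFC over Control, and Pck1, Fbp1, Slc2a2 and Ppargc1a in HF+SFC over HF. The ratio that moved was Ppargc1a in HF+SFC over HF, 0.17 as the median over probe sets. With arrays centred on their medians, 1 member was at least 1.5-fold higher in HF than in Control in place of 2, as Pklr came to 0.58. At a 2-fold threshold 0 members were higher in HF over Control and 0 higher and 0 lower in HF+SFC over Control. At 2-fold the pathway genes were 8 higher and 7 lower in HF over Control, 0 higher and 2 lower in HF+SFC over HF, and 6 higher and 6 lower in HF+SFC over Control. In the upper 25% of signal 16 pathway genes were higher in HF over Control, and 0 were higher and 0 lower in HF+SFC over HF, where 11 were lower with no filter. The counts at 2-fold and in the upper 25% of signal are lower by construction, since they take a stricter threshold or fewer genes. Pcx had no value without ambiguous suffixes, and over 7 alternatives it was beyond 1.5-fold in HF over Control under 3. Slc2a2 in HF over Control and G6pc in HF+SFC over Control were beyond 1.5-fold under 8 of 8. Each has 1 probe set, with no ambiguous suffix and a signal far above the floor. The floor, the median over probe sets and leaving out ambiguous suffixes therefore could not change these values, and the pseudocount hardly did. Only the rescalings could move them, and the 213 ratios include others of this kind. The 199 summaries also include values that could not move. All 9 genes lay in the upper 25% of signal, so the filters could not change their summaries. A count of 0 could not rise at a 2-fold threshold. Centring on the medians moved the median of all kept genes by -0.10 in HF over Control and 0.12 in HF+SFC over HF, and centring on the hepatocyte markers by 0.10 in HF over Control. Members with each motif were the same in number with the whole 300 bases of each promoter.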

Other observations

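Markers of tissues that a liver sample could carry were read beside the 9 genes. The fat cell genes Adipoq, Lep and Retn were below the upper 50% of signal, whereas Cidea, also a lipid droplet gene, read 3.81 for Control, 897 for HF and 498 for HF+SFC. Of 5 cholangiocyte markers 3 were kept, at signals of 163 or less, with medians of 0.38 in HF over Control, -0.73 in HF+SFC over HF and -0.42 in HF+SFC over Control. Among these Sox9 read 163, 91.9 and 122, Epcam 80.1, 129 and 77.9, and Krt19 80.4, 105 and 56.4. Of 10 endothelial markers 1 was at least 1.5-fold higher in HF than in Control and 1 at least 1.5-fold lower in HF+SFC than in HF, in both cases Lyve1, named after its values were seen, with medians of 0.15 and -0.16. Of 4 pancreas markers 2 were kept, with a median of 0.30 in HF over Control and -0.14 in HF+SFC over HF. In HF+SFC over HF the 2 went opposite ways, at -0.72 and 0.43.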
